A study of Mus musculus with 16 samples.

Results

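Whole hearts of midgestation mouse embryos that carry 1 altered copy of Tbx5 were compared between 2 altered alleles, CreERT2/+ against del/+. The members are the libraries labelled Tbx5 CreERT2/+ (4) and Tbx5 del/+ (4), all at E10.5, which are 8 of the 16 libraries of the series; the remaining ones are 4 Tbx5 CreERT2/del libraries and 4 wild-type (WT) libraries of the same stage. Both heterozygotes keep 1 normal copy of Tbx5. In CreERT2/del hearts both copies are altered. CreERT2 is the usual name of a Cre recombinase fused to a modified oestrogen receptor domain, which makes it act only after a drug is given; no drug treatment is given in the labels, and they do not say how the del allele was made or which part of the gene it lacks. No strain is given in the labels. RNA was measured in bulk, so fewer cells of a type and less RNA per cell cannot be told apart.

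Tbx5 is a T-box transcription factor of the atria, the left ventricle and the forelimb. Loss of 1 copy causes Holt-Oram syndrome in people and septal and conduction defects in mice, so the heart is sensitive to its dose. Among its known direct targets are Gja5, the connexin 40 gene whose gap junctions couple atrial and fast-conducting muscle cells, and Nppa, which encodes atrial natriuretic peptide. Whether 2 altered alleles act with the same strength can be read in heterozygotes from how far each moves such genes away from normal.

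The 8 libraries held 21436305 to 33225108 counts, of which the mitochondrial ribosomal RNAs mt-Rnr1 and mt-Rnr2 took 66.3% ± 16.8 in CreERT2/+ and 68.8% ± 2.02 in del/+ (SD, n = 4 each). CreERT2/+ 3 stood apart with 42.3%, and the median SD of log2 CPM over genes was 0.50 in CreERT2/+ (0.35 without CreERT2/+ 3) and 0.33 in del/+. In an exact two-sided permutation test the mitochondrial ribosomal share differed by -2.44 percentage points (p = 0.914), and without CreERT2/+ 3 by 5.55 points (exact p = 0.2). Xist, which is expressed from the inactive X of females, was high in CreERT2/+ 2, 3 and 4 (142.6 to 615.1 CPM) and in del/+ 3 (218.4 CPM), so the sexes are unequal. Heart muscle genes were abundant in all 8, with Tnnt2 at 660.4 to 1743 CPM in CreERT2/+ and 1326 to 2027 CPM in del/+. It is not stated that each library is another embryo, so the p-values reflect the spread between libraries, which may be technical. Levels are in CPM, the number of a gene's reads per 1e6 reads of a library whose size was adjusted by the TMM method.

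Tbx5 itself (ENSMUSG00000018263, chromosome 5, 120284672 to 120335227 in mm9) had 19.8, 18.1, 39.2 and 20.6 CPM in CreERT2/+ hearts, against 41.5, 29.6, 24.8 and 28.8 CPM in del/+ hearts. The values overlapped, because CreERT2/+ 3 lay far above the other CreERT2/+ libraries. The difference of mean log2(CPM + 1) was -0.38 (exact two-sided permutation test, p = 0.257), and in edgeR's model the log2 difference was -0.35 ± 0.25 (SE). Without CreERT2/+ 3 the difference was -0.63 (exact p = 0.0571). WT libraries held 19.7 ± 5.24 CPM and CreERT2/del libraries 22.4 ± 1.79 CPM (SD, n = 4 each), so no altered genotype had a mean below WT. Against WT the log2 differences were 0.31 ± 0.25 in CreERT2/+ and 0.66 ± 0.25 in del/+ (SE), and neither passed. Counts over the whole gene do not show which part an altered allele lacks, so they do not check the genotypes.

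No gene separated the heterozygotes once all genes were considered. Of 14612 genes tested with edgeR's quasi-likelihood test, 0 had a Benjamini-Hochberg adjusted p under 0.05 (0% of those tested), and the lowest adjusted p was 0.997. DESeq2 and limma-voom also called 0 genes, with lowest adjusted p of 0.683 and 0.989. An unadjusted p under 0.05 was found for 611 genes (4.18%), 359 higher (2.46%) and 252 lower (1.72%) in CreERT2/+. The 4 CreERT2/+ and 4 del/+ libraries did not overlap for 339 genes (2.32%), 210 of them higher (1.44%) and 129 lower (0.883%) in CreERT2/+. For 8771 genes (60.0%) the 95% interval of the difference lay within 2-fold in either direction, and for the rest the data allow a larger difference. Every gene value below is therefore one that did not pass over all genes, unless it is stated to be a comparison with WT.

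Gja5 (ENSMUSG00000057123, chromosome 3, 96708616 to 96881339) was higher in CreERT2/+ than in del/+ hearts. It had 32.3, 35.1, 38.9 and 26.5 CPM in CreERT2/+, against 20.7, 20.1, 17.6 and 14.1 CPM in del/+. All 4 CreERT2/+ libraries lay above all 4 del/+ libraries, with a 1.83-fold higher level. The edgeR log2 difference was 0.87 ± 0.23 (SE; 95% interval 0.39 to 1.35; unadjusted p = 0.00106). The exact two-sided permutation test gave a difference of 0.84 on the log2(CPM + 1) scale with p = 0.0286, the smallest p that 4 against 4 can give, and 0.0857 after Benjamini-Hochberg adjustment over the 3 single-value tests (Gja5, Tbx5 and the mitochondrial ribosomal share). Gja5 was chosen because earlier results of these data showed it low in altered hearts. CreERT2/del libraries held 4.39 ± 1.04 CPM and WT libraries 53.4 ± 16.5 CPM (SD, n = 4 each), so in mean level both heterozygotes lay between them. By library CreERT2/+ overlapped WT, as WT 2 held 38.05 CPM. Against WT the log2 differences were -0.69 ± 0.23 in CreERT2/+ and -1.56 ± 0.23 in del/+ (SE), and of these only the del/+ value passed (edgeR quasi-likelihood test, Benjamini-Hochberg adjusted p = 0.00185).

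Cpne5, which encodes a calcium-dependent membrane-binding copine and stands in the pacemaker list used here, had the lowest p of all 14612 genes. Its level was 6.73, 4.36, 6.11 and 5.38 CPM in CreERT2/+, against 3.20, 2.00, 3.30 and 2.75 CPM in del/+. The groups did not overlap, and the log2 difference was 1.00 ± 0.25 (SE, unadjusted p = 0.000632). CreERT2/+ hearts were close to the WT level of 5.44 ± 0.652 CPM, and del/+ hearts were nearer to the CreERT2/del level of 1.98 ± 0.597 CPM (SD, n = 4 each). Against WT the del/+ value did not pass (edgeR quasi-likelihood test, adjusted p = 0.295).

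Slc17a7, which encodes the vesicular glutamate transporter VGLUT1, was the third gene lower in CreERT2/del whose heterozygous libraries did not overlap. It was barely expressed: the deposited counts were 7, 28, 18 and 10 in CreERT2/+, against 1, 5, 0 and 6 in del/+. The log2 difference of 2.17 ± 0.80 (SE, unadjusted p = 0.013) therefore rests on few reads.

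The 250 bases upstream of the start of these 3 genes are shown because they are the genes of the CreERT2/del-low list that kept the alleles apart in every library (RefSeq, GRCm38.p6, 5′ to 3′ on the gene's strand). Capitals mark GGTGT, the core of the T-box binding motif, on either strand. The windows are chr3:97032152-97032401 on the plus strand for Gja5, chr17:29237791-29238040 on the minus strand for Cpne5 and chr7:45163671-45163920 on the plus strand for Slc17a7.
Gja5: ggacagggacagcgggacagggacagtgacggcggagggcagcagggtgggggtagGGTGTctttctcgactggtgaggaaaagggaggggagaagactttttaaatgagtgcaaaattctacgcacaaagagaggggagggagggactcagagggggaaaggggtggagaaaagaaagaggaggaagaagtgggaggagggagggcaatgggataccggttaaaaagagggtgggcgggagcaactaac
Cpne5: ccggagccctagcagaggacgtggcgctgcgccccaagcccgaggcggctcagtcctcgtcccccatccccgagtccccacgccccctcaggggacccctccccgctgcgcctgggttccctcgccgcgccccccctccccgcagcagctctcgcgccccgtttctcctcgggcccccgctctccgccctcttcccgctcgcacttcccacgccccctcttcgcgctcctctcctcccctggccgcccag
Slc17a7: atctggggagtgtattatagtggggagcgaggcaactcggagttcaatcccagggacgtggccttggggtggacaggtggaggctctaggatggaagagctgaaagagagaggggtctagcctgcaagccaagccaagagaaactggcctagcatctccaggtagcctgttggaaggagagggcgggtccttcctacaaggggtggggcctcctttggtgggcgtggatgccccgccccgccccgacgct
The Gja5 window holds GGTGT once, starting 194 bases before the start of the gene (-194), and the other two windows do not hold these letters on either strand. Of 32851 such windows 36.2% hold the core on either strand and 1.12% the longer motif AGGTGTGA, which contains it and is in none of the 3 shown. A match is a description of the letters and does not show binding.

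**Figure D1:**
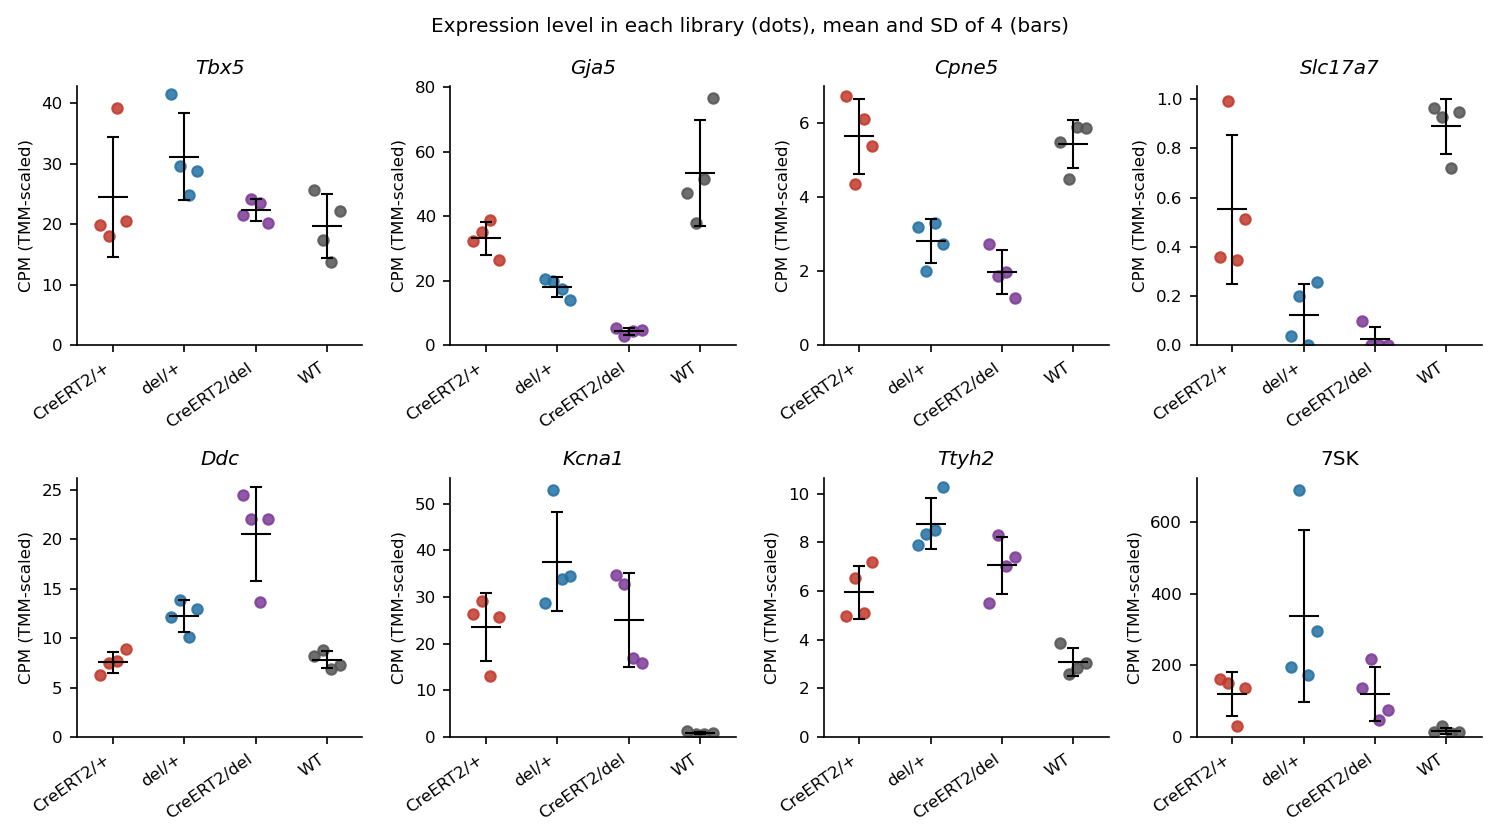
Level of 8 genes in every library, in CPM with TMM scaling on linear axes that start at 0. Dots are libraries, and bars are the mean and SD of 4 for CreERT2/+, del/+, CreERT2/del and WT. Gja5, Cpne5 and Slc17a7 lie higher in all 4 CreERT2/+ than in all 4 del/+ libraries, Ddc, Ttyh2 and 7SK lie lower, and Tbx5 and Kcna1 overlap.

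To order the alleles on genes that no heterozygous library had chosen, the genes that differed between CreERT2/del and WT were taken from a fit to those 8 libraries alone. That fit called 59 of 13970 genes (0.422%), 26 lower and 33 higher in CreERT2/del. On the 26 lower genes the CreERT2/+ hearts stayed nearer to WT. The median log2 difference CreERT2/+ minus del/+ was 0.35 over these genes and 0.03 over all tested genes. It was positive for 19 of 26 genes, against 53.9% of all genes, and without Gja5 the median was 0.33. An unadjusted p under 0.05 was found for 5 of the 26 genes, all higher in CreERT2/+ (2.46% of all genes), and 3 of the 26 did not overlap in that direction (1.44% of all genes). The same genes were below WT by a median of -0.25 in CreERT2/+ and -0.47 in del/+, and 19 of 26 in CreERT2/+ and 24 of 26 in del/+ lay on the CreERT2/del side of WT. These comparisons share the WT libraries, which also helped to choose the genes.

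The mean log2 CPM of the 26 genes separated the alleles in every library. Relative to the WT mean it was -0.40, -0.31, -0.40 and -0.24 in CreERT2/+ 1 to 4, against -0.79, -0.52, -0.71 and -0.58 in del/+ 1 to 4. The CreERT2/del libraries lay between -1.85 and -2.17. So every CreERT2/+ library lay above every del/+ library, and both lay far above CreERT2/del. Without CreERT2/+ 2 the median difference of the list was 0.19, without CreERT2/del 4, when 14 genes were chosen, it was 0.20, and without the 3 libraries of the series lowest in mitochondrial ribosomal RNA, when 59 genes were chosen, it was 0.09. With the 26 genes held fixed and those 3 libraries left out it was 0.32.

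Beyond the 3 genes above, Kcnk3 and Thbd had an unadjusted p under 0.05; these 2 genes fall outside the naming rule and were picked on their values. Kcnk3, a background potassium channel, had 14.4, 9.82, 6.34 and 13.7 CPM in CreERT2/+, against 8.69, 8.68, 7.01 and 3.70 CPM in del/+. Thbd, the endothelial anticoagulant receptor thrombomodulin, had 9.15, 4.18, 10.01 and 5.28 CPM in CreERT2/+, against 5.18, 3.04, 3.61 and 6.58 CPM in del/+. For both genes the libraries overlapped, and the log2 differences were 0.65 ± 0.28 and 0.64 ± 0.29 (SE). Tbx3, the T-box gene of the sinus node and conduction system, had 5.50, 2.98, 7.33 and 5.33 CPM in CreERT2/+, against 3.55, 3.96, 2.95 and 3.91 CPM in del/+. Its log2 difference of 0.56 ± 0.29 did not reach an unadjusted p of 0.05. Tbx3 lies near Tbx5 on chromosome 5 (120120678 to 120134733), and a local effect of the altered alleles was not tested. Of 7 tested chromosome 5 neighbours of Tbx5, Tbx3 included, 5 were higher and 2 lower in CreERT2/+. Their median was 0.22, and it was -0.006 without CreERT2/+ 1. Ntn1, which encodes the secreted cue netrin 1, was in mean level below its WT level of 9.38 ± 3.33 CPM in both, with 5.94 ± 1.80 CPM in CreERT2/+ and 4.37 ± 1.15 CPM in del/+ (SD, n = 4 each). Against WT neither value passed (edgeR quasi-likelihood test, adjusted p of 0.99965 in CreERT2/+ and 0.399 in del/+). WT 2, at 5.35 CPM, lay within the CreERT2/+ range.

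Other genes that were low in CreERT2/del showed little difference between the alleles. Ap3b2, a subunit of a neuronal vesicle adaptor, was the gene with the lowest p in CreERT2/del, where it had 0.244 ± 0.083 CPM. In the heterozygotes it had 4.27, 5.78, 5.71 and 3.23 CPM in CreERT2/+, against 2.97, 4.08, 5.03 and 5.16 CPM in del/+ (log2 difference 0.15 ± 0.26, 95% interval -0.40 to 0.69). Stard10, a lipid transfer protein, was the lowest of the list at -0.26 ± 0.32, and Fam70a and Fam134b lay at 0.08 ± 0.24 and 0.26 ± 0.23 (SE). BC053393 was near the detection limit in both, with 0.202 CPM in CreERT2/+ and 0.233 CPM in del/+. The ordering of the alleles on this list is thus carried by some of its genes and not by others, as the plot of the 26 genes shows.

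**Figure D2:**
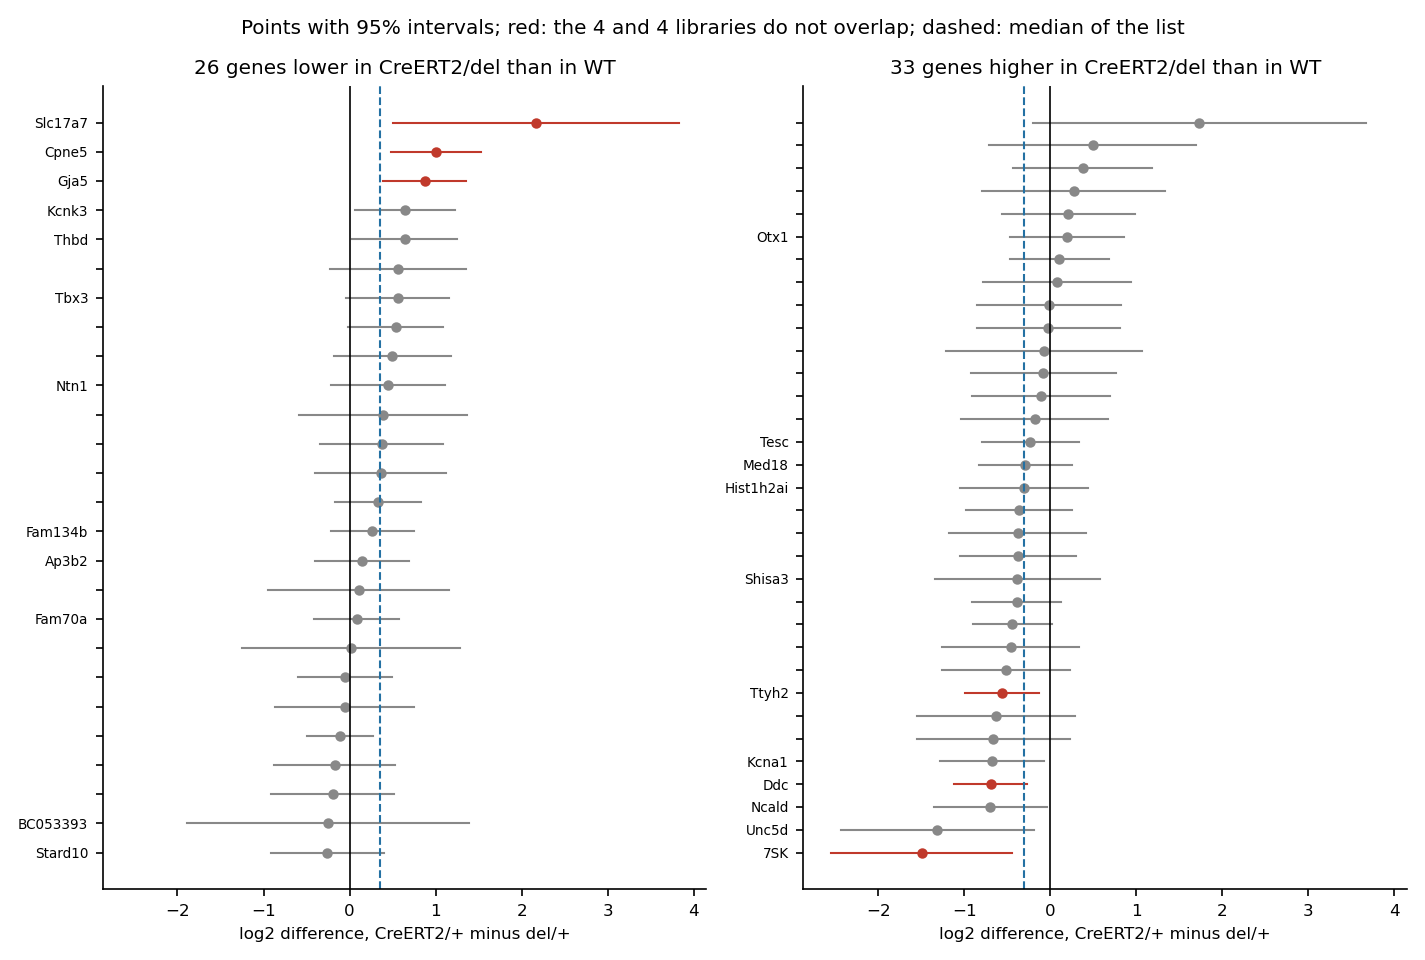
Log2 difference CreERT2/+ minus del/+ (x axis) of the 26 genes lower and the 33 genes higher in CreERT2/del than in WT, with 95% intervals from edgeR's model. Genes named in the text carry their symbol. Red marks genes whose 4 and 4 libraries do not overlap, and the dashed line is the median of the list, 0.35 for the lower genes and -0.30 for the higher genes.

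The 33 genes higher in CreERT2/del were lower in CreERT2/+ by a median of -0.30, and 25 of 33 were negative, but CreERT2/+ 3 decides this value. Without that library the median was -0.10 and 15 of 33 genes were positive. By the distance of log2 levels, del/+ lay nearer to CreERT2/del than CreERT2/+ did for 13 of these 33 genes, and for 19 of the 26 lower genes. The 33 genes were above WT by a median of 1.34 in CreERT2/+, 1.51 in del/+ and 1.81 in CreERT2/del. On the CreERT2/del side of WT lay 30 of 33 in CreERT2/+ and 33 of 33 in del/+. Both heterozygotes were thus close to CreERT2/del on this list, which limits how far it can order the alleles. An unadjusted p under 0.05 was found for 6 of the 33, all lower in CreERT2/+ (1.72% of all genes), and 3 did not overlap in that direction (0.883% of all genes). Relative to the WT mean, the mean log2 CPM of the 33 genes was 1.60, 1.33, 0.42 and 1.80 in CreERT2/+ 1 to 4, against 1.55, 1.76, 1.57 and 1.64 in del/+ 1 to 4. The groups overlapped, and CreERT2/+ 3, the library low in mitochondrial ribosomal RNA, lay far below the rest. The list holds many histone genes and small RNAs, whose near-identical copies can share reads.

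**Figure D3:**
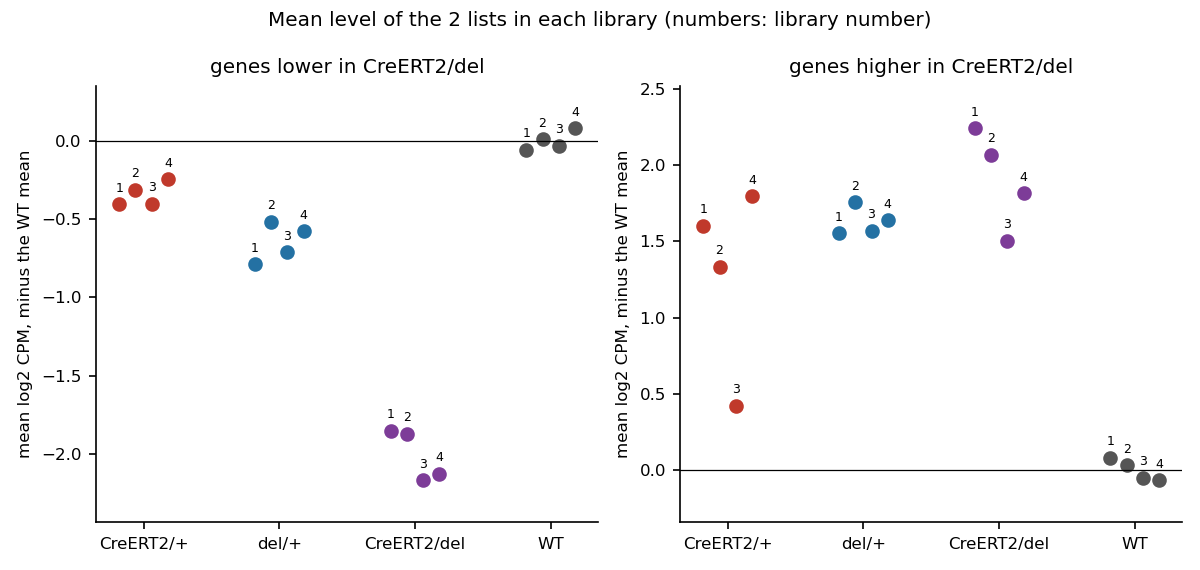
Mean log2 CPM of the 26 genes lower (left) and the 33 genes higher (right) in CreERT2/del, relative to the WT mean, in each library. Numbers are library numbers. The 4 CreERT2/+ libraries lie between -0.40 and -0.24 for the lower genes, above del/+ at -0.79 to -0.52, and overlap del/+ for the higher genes, where CreERT2/+ 3 lies at 0.42.

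Ddc, which encodes aromatic amino acid decarboxylase of dopamine and serotonin synthesis, was the clearest of the higher genes. It had 6.27, 7.44, 7.71 and 8.86 CPM in CreERT2/+, against 12.1, 13.8, 10.1 and 12.9 CPM in del/+. The groups did not overlap, and the log2 difference was -0.69 ± 0.21 (SE, unadjusted p = 0.00281). CreERT2/+ hearts were at the WT level (7.80 ± 0.855 CPM), and del/+ hearts lay between WT and CreERT2/del (20.5 ± 4.76 CPM; SD, n = 4 each). In mean level, Ddc and Cpne5 share a pattern in which CreERT2/+ was near WT and del/+ lay toward CreERT2/del. The del/+ value passed against WT for neither gene (edgeR quasi-likelihood test, adjusted p of 0.533 for Ddc and 0.295 for Cpne5). Both genes were also singled out by their difference between the alleles.

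Ttyh2, which encodes a membrane protein of the tweety family, had 4.98, 6.52, 5.09 and 7.17 CPM in CreERT2/+, against 7.89, 8.36, 8.51 and 10.3 CPM in del/+. The groups did not overlap and differed by -0.56 ± 0.21 on the log2 scale, and WT libraries held 3.08 ± 0.565 CPM (SD, n = 4). The CreERT2/del mean of Ttyh2 was 7.05 CPM, below the del/+ mean of 8.76 CPM. The chromosome 9 entry of 7SK, the non-coding RNA that restrains transcription elongation, had 162.7, 150.3, 31.0 and 137.3 CPM in CreERT2/+, against 194.3, 691.4, 174.1 and 296.0 CPM in del/+. It differed by -1.50 ± 0.51 without overlap, but 14 entries of 7SK were tested and near-identical copies can share reads, so its level is uncertain. The CreERT2/del mean of this entry was 119.8 CPM, below the del/+ mean of 339.0 CPM. For Ttyh2 and 7SK the levels were thus not graded from WT through del/+ to CreERT2/del.

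A group of genes was far above WT in both heterozygotes, and of these Otx1, Med18 and Tesc differed less between them than Ttyh2 did. Kcna1, a voltage-gated potassium channel, had 26.3, 29.2, 13.0 and 25.8 CPM in CreERT2/+, against 28.8, 53.02, 34.0 and 34.6 CPM in del/+; WT libraries held 0.851 ± 0.251 CPM. The heterozygous libraries overlapped, with a log2 difference of -0.67 ± 0.29. The CreERT2/del mean of Kcna1 was 25.1 CPM, below the del/+ mean of 37.6 CPM. Otx1, a homeobox gene of the forebrain, had 2.38 ± 0.376 CPM in CreERT2/+ and 2.07 ± 0.582 CPM in del/+, against 0.169 ± 0.0426 CPM in WT (SD, n = 4 each). Med18, a Mediator subunit, had 8.30 ± 2.08 CPM in CreERT2/+ and 10.1 ± 2.30 CPM in del/+, against 1.80 ± 0.446 CPM in WT. Its CreERT2/del mean was 6.78 CPM, below both heterozygotes. Tesc, a calcium-binding protein, had 2.98 ± 0.632 CPM in CreERT2/+ and 3.47 ± 0.910 CPM in del/+, against 0.919 ± 0.267 CPM in WT. The 95% intervals between the alleles were -0.47 to 0.86 for Otx1, -0.83 to 0.25 for Med18 and -0.80 to 0.34 for Tesc, so a difference of 2-fold lies outside each of them.

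Against WT, in the same fit, 5 genes passed in CreERT2/+ (0.0342%) and 17 in del/+ (0.116%). The 5 genes, Kcna1, Otx1, Med18, Tesc and Hist1h2ai, were among the 17 (100% of the CreERT2/+ calls and 29.4% of the del/+ calls), and the comparisons share the WT libraries. All 5 rose in CreERT2/+, and 16 of 17 rose in del/+. Gja5 was the gene that fell in del/+. For 2 of the 17 genes, Gja5 and Otx1, the level was higher in CreERT2/+ than in del/+, and for 15 it was lower. All 17 passed in del/+, which favours genes in which del/+ lies far from WT. This count therefore does not order the alleles. Against WT in CreERT2/+, 7SK and Fam3c each had an adjusted p of 0.0562 (edgeR quasi-likelihood test). CreERT2/+ 3 was the lowest CreERT2/+ library for Kcna1, Med18 and 7SK. Unc5d, a netrin receptor, had 3.39, 4.15, 1.60 and 4.05 CPM in CreERT2/+, against 4.00, 17.8, 5.03 and 5.63 CPM in del/+. It passed against WT in del/+ and not in CreERT2/+, but the alleles themselves differed by -1.31 ± 0.54 on the log2 scale with overlapping libraries. Ncald, a neuronal calcium sensor, likewise overlapped, with 5.48 ± 1.23 CPM in CreERT2/+ and 8.83 ± 4.20 CPM in del/+ (SD, n = 4 each), and del/+ 2 was high for both. Without del/+ 2 the difference of Unc5d was -0.58.

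Gene groups of the atria and of pacemaker tissue leaned higher in CreERT2/+, without a member that passed over all genes, whereas the list of Tbx5-responsive heart genes did not. Of the 20 Tbx5-responsive heart genes, 9 were higher and 11 lower in CreERT2/+, with a median log2 difference of -0.04, which ran from -0.03 to 0.18 without each heterozygous library in turn. An unadjusted p under 0.05 was found for 2 of them in the higher and 1 in the lower direction (2.46% and 1.72% of all genes). Of 14 atrial markers, 11 were higher and 3 lower in CreERT2/+, with a median log2 difference of 0.35 against 0.03 over all genes. Without CreERT2/+ 3 the split was 8 higher and 6 lower with a median of 0.24, and without CreERT2/+ 4 it was 9 higher and 5 lower. Besides Gja5, Nppa had 79.1, 46.7, 47.2 and 62.2 CPM in CreERT2/+, against 60.6, 18.5, 37.8 and 20.9 CPM in del/+ (0.77 ± 0.34), and del/+ 1 overlapped the CreERT2/+ range. Of 11 genes of the sinus node and pacemaker list, 8 were higher and 3 lower, with a median of 0.37, which was 0.14 without CreERT2/+ 3 and 0.56 without CreERT2/+ 2. Hcn4, the pacemaker channel, had 9.15, 4.40, 15.2 and 9.94 CPM in CreERT2/+, against 5.07, 5.198, 8.47 and 5.98 CPM in del/+ (0.65 ± 0.33), and CreERT2/+ 3 held the highest value. Of 29 ion channel, gap junction and calcium handling genes, 21 were higher and 8 lower, with a median of 0.21 (0.08 without CreERT2/+ 3 and 0.35 without del/+ 4). An unadjusted p under 0.05 was found for 3 of them in the higher and 1 in the lower direction (2.46% and 1.72% of all genes). Scaling by median ratios or leaving the mitochondrial ribosomal RNAs out kept the sign of the atrial, pacemaker and ion channel medians. Gja5 belongs to the Tbx5-responsive, atrial and ion channel lists and to the trabecular and ventricular conduction list below. Cpne5 belongs to the pacemaker list, and the lists were chosen with earlier results known.

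In the list of trabecular and ventricular conduction genes 4 of 14 members had an unadjusted p under 0.05 in the higher and 1 in the lower direction (2.46% and 1.72% of all genes). Gja5 is among these 4, and Gja5, Nppa and Bmp10 are shared with the Tbx5-responsive and atrial lists, so this is not a separate group. The median was 0.10, and it was 0.06 without del/+ 1. Slit2, a secreted guidance cue, had 77.1, 85.3, 73.1 and 66.8 CPM in CreERT2/+, against 52.6, 40.0, 67.8 and 46.6 CPM in del/+ (0.55 ± 0.21). Cited1, a transcriptional co-regulator, averaged 88.0 ± 25.0 CPM in CreERT2/+ and 57.5 ± 14.9 CPM in del/+ (SD, n = 4 each; 0.61 ± 0.26). Bmp10, the growth factor of trabeculae and atria, went the other way, with 5.24, 6.73, 6.42 and 4.46 CPM in CreERT2/+, against 4.99, 9.996, 7.98 and 9.80 CPM in del/+ (-0.51 ± 0.24). The libraries overlapped for all 3 genes.

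The sarcomere genes listed here had narrow intervals. All 22 tested sarcomere genes had a 95% interval within 2-fold, against 60.0% of all genes, which include genes with few reads. The same held for 18 of 18 cell cycle and 18 of 20 oxidative phosphorylation genes, but for 5 of 14 atrial markers. The sarcomere list had a median of -0.04 and a range from -0.38 for Tnnt2 to 0.22 for Ldb3. Actn2, the Z-disc protein with the lowest p of the sarcomere list, had 102 ± 12.3 CPM in CreERT2/+ and 128 ± 21.8 CPM in del/+ (SD, n = 4 each). Among 19 cardiac transcription factors 17 had an interval within 2-fold, the median was 0.07, and none had an unadjusted p under 0.05. The median was 0.02 over 11 ventricular markers, -0.03 over 13 genes of endocardium and endothelium and 0.05 over 11 epicardium genes. Without each heterozygous library in turn, the medians of these 5 lists ran from -0.19 for the sarcomere (without CreERT2/+ 4) to 0.26 for the ventricular markers (without CreERT2/+ 3). Tnnt1, the troponin T of slow skeletal muscle, is not in the sarcomere list; its values stand with the genes of lowest p.

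Cell cycle genes leaned lower in CreERT2/+: 15 of 18 were lower and 3 higher, with a median of -0.25, and all 18 intervals lay within 2-fold. Mcm2, a subunit of the replicative helicase, had 26.1, 21.9, 24.5 and 25.0 CPM in CreERT2/+, against 36.2, 41.7, 25.6 and 34.4 CPM in del/+ (-0.50 ± 0.20). Of the del/+ libraries all but del/+ 3 lay above the CreERT2/+ range. The median kept its sign under both other scalings and without CreERT2/+ 3 (-0.22). Glycolysis genes (18 genes, median -0.09), oxidative phosphorylation genes of the nucleus (20 genes, median -0.08) and p53 targets (12 genes, median -0.05) had medians below that of all genes (0.03). The oxidative phosphorylation median was -0.33 without CreERT2/+ 4 and 0.11 without CreERT2/+ 3, the glycolysis median -0.30 without CreERT2/+ 3, and the p53 median -0.20 without CreERT2/+ 2 and 0.06 without CreERT2/+ 3. Of 11 protein-coding mitochondrial transcripts, 10 were higher in CreERT2/+ with a median of 0.36. That median was 0.02 without CreERT2/+ 4, when 7 were higher, and 0.69 without CreERT2/+ 3, and mt-Atp6 alone ran from 154.3 to 1168 CPM within CreERT2/+, against 202.8 to 521.5 CPM in del/+.

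**Figure D4:**
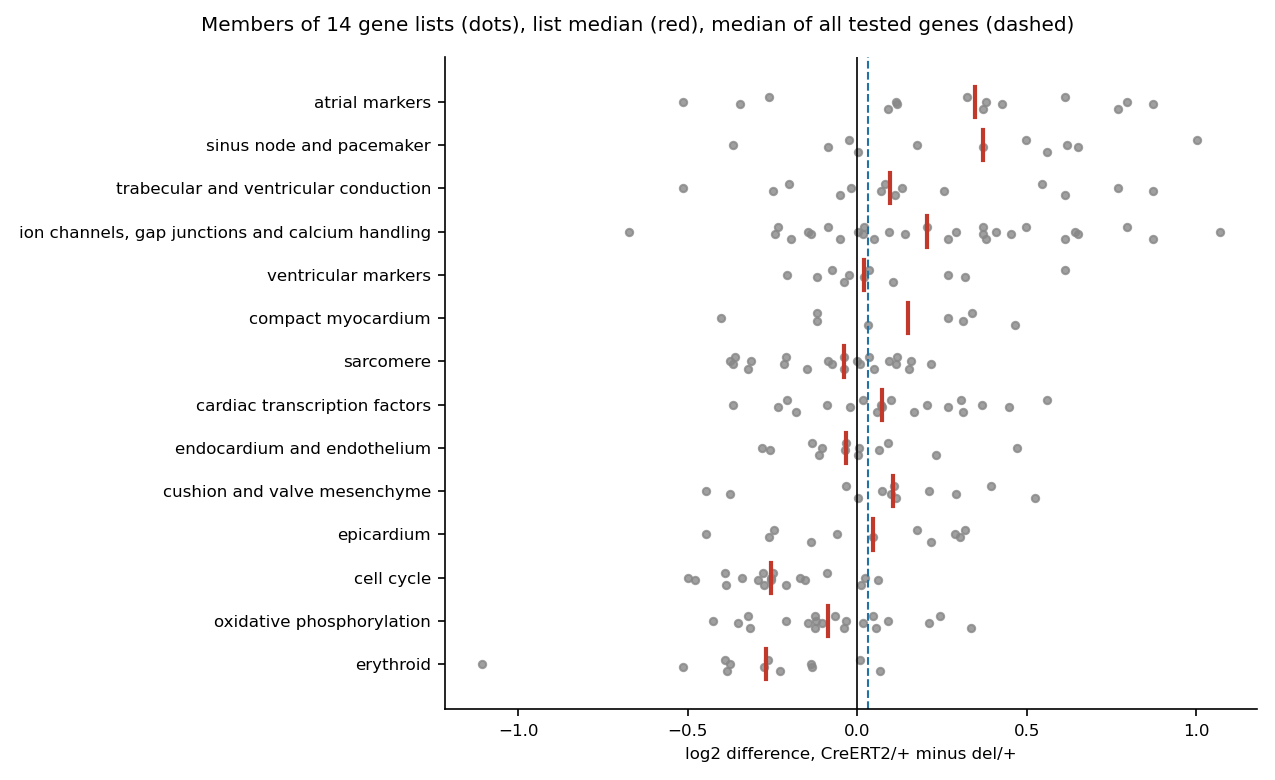
Log2 difference CreERT2/+ minus del/+ (x axis) of the tested members of 14 gene lists. Dots are genes, red bars list medians, and the dashed line the median of all 14612 genes (0.03). The atrial and pacemaker medians lie at 0.35 and 0.37, the sarcomere median at -0.04 and the cell cycle median at -0.25.

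The remaining genes with the lowest p among those whose libraries did not overlap had diverse roles. Higher in CreERT2/+ were Pddc1, Glcci1, Phxr4, Hars2, Fam76a, Plscr3, Wdr31, Odz2, Pde1c and Xkr8. Glcci1, a glucocorticoid-induced transcript, had 3.13, 2.91, 2.80 and 4.71 CPM in CreERT2/+, against 1.41, 1.24, 2.22 and 1.46 CPM in del/+ (1.08 ± 0.31). Pde1c, a calmodulin-dependent phosphodiesterase of muscle, had 3.19, 5.10, 3.28 and 3.12 CPM in CreERT2/+, against 1.91, 2.80, 1.67 and 1.76 CPM in del/+ (0.86 ± 0.30). Both genes were near WT in CreERT2/+, with WT means of 2.89 and 3.38 CPM. Plscr3, Wdr31 and Odz2 were instead nearer to WT in del/+. Their log2 differences from WT were 0.72, 0.81 and 0.64 in CreERT2/+, against -0.07, -0.16 and -0.37 in del/+.

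Lower in CreERT2/+ were Car4, Tnnt1, Txnrd3, Coq5, Tmed4, Dak, Dpp3, Chmp7, Ap2a1 and Actr1b, besides Ddc. Car4, a membrane-bound carbonic anhydrase, had 2.98, 4.32, 3.43 and 3.74 CPM in CreERT2/+, against 5.18, 7.20, 7.57 and 7.09 CPM in del/+ (-0.90 ± 0.24). Tnnt1, slow skeletal troponin T, had 17.6, 21.9, 13.1 and 16.9 CPM in CreERT2/+, against 27.7, 41.3, 27.9 and 26.05 CPM in del/+ (-0.83 ± 0.22). Coq5, a methyltransferase of coenzyme Q synthesis, had 13.3, 13.4, 13.9 and 10.6 CPM in CreERT2/+, against 19.7, 28.5, 16.4 and 19.5 CPM in del/+ (-0.71 ± 0.20). WT hearts held 4.17 CPM of Car4, 23.03 CPM of Tnnt1 and 12.5 CPM of Coq5, so Car4 and Coq5 in CreERT2/+ were near WT. Txnrd3, Dak, Chmp7 and Ap2a1 were instead nearer to WT in del/+. Their log2 differences from WT were -0.79, -0.53, -0.65 and -0.50 in CreERT2/+, against 0.46, 0.43, 0.30 and 0.20 in del/+. Unadjusted p ran from 0.00121 to 0.00694 for these 11 lower genes and from 0.000632 to 0.00966 for the 12 higher genes, Gja5 and Cpne5 included.

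Markers of endoderm and liver moved with del/+ 1. Of 12 endoderm and liver genes, 11 were lower in CreERT2/+ with a median of -2.77, and their summed level was 2.62 to 20.9 CPM in CreERT2/+ and 3.02 to 309.9 CPM in del/+. The high value is del/+ 1, where the liver gene Alb had 51.4 CPM, whereas the other del/+ libraries reached 0.040 CPM at most and the CreERT2/+ libraries held 0, 0, 0 and 1.69 CPM. Without del/+ 1 the median of this list was 0.57. Without del/+ 1 the log2(CPM + 1) difference of Gja5 was 0.90, and 0 genes were called over all. Erythroid genes summed to 1577 to 5157 CPM in CreERT2/+, lowest in CreERT2/+ 3, and to 3972 to 5938 CPM in del/+. Of 12 erythroid genes, 10 were lower in CreERT2/+. Their median of -0.27 ran from -0.47 to -0.11 without each heterozygous library in turn. Of 10 leukocyte and macrophage genes, 8 were lower in CreERT2/+. Their median of -0.23 ran from -0.46 to 0.08, the last without del/+ 1. With Xist as a covariate for the unequal sexes 0 genes passed and the median of the 26 genes was 0.38. The part of these libraries in single gene values outside these alternatives was not tested.

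The authors' deposited table for this comparison gives del/+ over CreERT2/+, the opposite sign. It lists 14820 genes, with 0 at an adjusted p under 0.05 and 470 at an unadjusted p under 0.05. For Gja5 the authors' deposited table gives a log2 fold change of -0.84 with an unadjusted p of 0.22, and for Cpne5 -0.98 with 0.0233.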

How the data were processed

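Per the labels' protocols, RNA came from embryonic hearts by Qiazol and the miRNeasy micro kit, and libraries were made by the Ovation V2 system. Per the submitters' processing notes the tools were TopHat2, featureCounts and edgeR and the build mm9; their versions and the strand setting were not given in the sources used here, and overlapping or antisense genes may share reads. The authors deposited 1 table of 37991 genes. Its per-library columns hold whole-number counts of reads per gene; although the record of units lists these deposited columns under expected counts for a technical reason of their headers, no value is an estimate by a model, and none was rounded. Genes without a symbol (415) held no more than 0.117% of the counts in any library, and 52 deposited columns of other per-library or mean values were not used. The authors' deposited comparison gives per gene a log2 fold change with its raw and adjusted p-value; gene lengths in bases were not used.

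The members and gene lists were chosen with earlier results of these data known. Genes were tested with edgeR 4.0.16 under R 4.3.3 (default low-count filter, 14612 genes, TMM scaling, quasi-likelihood model with 1 mean per genotype over all 16 libraries, 12 residual degrees of freedom), with Benjamini-Hochberg adjustment over all tested genes at 0.05. SEs are the log2 difference divided by the root of the F statistic. Single values were compared by two-sided exact permutation tests, of log2(CPM + 1) for genes. Genes named are Tbx5 and Gja5, up to 12 in each direction by lowest p without overlap of libraries and with a mean of at least 1 CPM, the lowest-p member of each of 32 lists, and 8 in each direction from CreERT2/del against WT; predicted, histone and small RNA genes are left out of the lowest-p part, and 2 genes that the rule names are not reported here. The procedure was tested on simulated data. Alternatives were other scalings and filters, DESeq2 1.42.0, limma-voom (limma 3.58.1), fewer libraries, the replicate number as a block, and covariates for mitochondrial ribosomal RNA, Xist and 7SK. Replicates of a heterozygote differed beyond sampling noise in each pair (chi-square over its degrees of freedom 22.9 to 617.4), and each was kept as its own sample. Upstream sequences come from RefSeq (GRCm38.p6); 5 of 6 genes looked up had one.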

Additional observations from a re-analysis of the deposited data

Results flagged for a closer look

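In 10 of 130 gene and group values examined, 1 library lay far from the other 3 of its genotype by Dixon's criterion, which chance meets in about 1 of 20 groups. CreERT2/+ 3, the library with the least mitochondrial ribosomal RNA, held 3 of them. Its Tbx5 level was 39.2 CPM, and the next CreERT2/+ value was 20.6 CPM. Its Kcna1 level was 13.0 CPM, and the next was 25.8 CPM. Its 7SK level was 31.0 CPM, and the next was 137.3 CPM. Within CreERT2/+, Pde1c was at 5.10 CPM and Asns, asparagine synthetase, at 11.98 CPM in CreERT2/+ 2, where the next values were 3.28 and 7.17 CPM. Coq5 was at 10.6 CPM in CreERT2/+ 4 (next 13.3 CPM), and Ap2a1, a subunit of the endocytic AP-2 adaptor, was at 4.37 CPM in CreERT2/+ 1 (next 4.96 CPM). Alb, the liver gene for albumin, was at 1.69 CPM in CreERT2/+ 4, where the other 3 were at 0. In del/+, Alb was at 51.4 CPM in del/+ 1 (next 0.040 CPM), and Tnnt1 was at 41.3 CPM in del/+ 2 (next 27.9 CPM).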

How the results depend on the processing

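The count of called genes was 0 under each alternative run but the one without a filter, which called 36 of 28379 genes (9 higher and 27 lower in CreERT2/+, among them the liver genes Alb and Afp, high in del/+ 1, and the sex-linked genes Xist and Kdm5d); the cause was not tested. The difference of Gja5 ran from 0.73 to 0.94 without each heterozygous library in turn. As its libraries do not overlap, its direction could not change there and is no separate check. With all libraries, the exact p of Gja5 was 0.0286 under both other scalings and with a pseudocount of 0.1 as well. The difference of Tbx5 ran from -0.63 to -0.24 without each library in turn and passed under no alternative.

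Replicate numbers do not pair the libraries (correlations of same-numbered deviations 0.034, 0.033, -0.056 and -0.053). With the replicate block 0 genes were called, and the paired exact sign-flip test of Gja5 gave 0.84 with p = 0.125, the smallest that 4 pairs allow.

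The median of the CreERT2/del-low genes ran from 0.19 to 0.39 without each of the 16 libraries in turn. Leaving out the 3 libraries with the least mitochondrial ribosomal RNA gave 0.092, and it was 0.153 with that share as a covariate. Both settings also chose other genes (59 and 50), and with the 26 genes held, an alternative chosen after seeing the data, the medians were 0.32 and 0.28. The median of the CreERT2/del-high genes ran from -0.45 to -0.10 without each library in turn. It was 0.040 without the 3 libraries, when 107 genes were chosen, and -0.086 there with the 33 genes held. It was 0.153 with 7SK as a covariate and the 33 genes held. With the genes chosen anew under that covariate 0 genes were chosen, which gives no value. The mitochondrial ribosomal share ran from -6.45 to 5.55 percentage points without each library in turn, the last without CreERT2/+ 3.

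Over the edgeR values of the 64 named genes, Tbx5 and Gja5 included, 1739 values kept direction and call, 5 passed only without a filter (Unc5d, Rbp4, Hbb-b1, Alb and 7SK) and 16 changed sign; none of these passed in either direction. The log2 differences without 1 library in turn ran from -3.10 to 0.0884 for Rbp4, -11.7 to 3.71 for Alb, -0.753 to 0.406 for BC053393, -0.118 to 0.245 for Fam70a, -0.658 to 0.0224 for Shisa3 and -0.606 to 0.0152 for Hist1h2ai. Without del/+ 1 the reversed values were Rbp4 (0.0884), Alb (3.71), Ap3b2 (-0.000206), Fam70a (-0.118) and Shisa3 (0.0224). BC053393 was 0.116 without CreERT2/+ 1 and 0.406 without del/+ 3. Hist1h2ai was 0.0152 without CreERT2/+ 3, 0.0294 without those 3 libraries and 0.377 with 7SK as a covariate. Fam70a was -0.00781 with Xist as a covariate. With 7SK as a covariate Unc5d was 0.167, Sox9 -0.146, Ap3b2 -0.153, Stard10 0.502 and Tesc 0.0280. Depth limits genes at few reads: the 95% interval of BC053393 (0.202 CPM in CreERT2/+ and 0.233 CPM in del/+) ran from -1.88 to 1.38, although Otx1, at 2.38 CPM in CreERT2/+ and 0.169 CPM in WT, passed against WT.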

Other observations

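Some listed genes outside the groups described above had an unadjusted p under 0.05 in edgeR's model and did not pass over all genes. Mdm2, the ligase that restrains p53, did not overlap, with 21.8, 20.5, 28.0 and 19.5 CPM in CreERT2/+, against 16.1, 17.0, 17.0 and 15.6 CPM in del/+ (0.45 ± 0.20). The p53 target list as a whole had 5 of 12 genes higher and 7 lower in CreERT2/+. Asns, an enzyme that the integrated stress response induces, had 6.99, 11.98, 6.75 and 7.17 CPM in CreERT2/+, against 15.2, 11.8, 12.7 and 12.5 CPM in del/+ (-0.67 ± 0.24), and CreERT2/+ 2 overlapped del/+. Of 11 genes of that list 8 were lower and 3 higher in CreERT2/+, with a median of -0.27, which was -0.14 without del/+ 1 and -0.16 without CreERT2/+ 2. Id1, a target of BMP signals, had 12.6, 9.36, 6.36 and 16.4 CPM in CreERT2/+, against 6.59, 4.92, 11.8 and 4.90 CPM in del/+ (0.66 ± 0.29), with overlap in del/+ 3.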
